A study of Mus musculus with 9 samples.

Results

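The regions described here are the places of open chromatin at 7 genes that hold cells back from dividing or that run the p53 response: the cell cycle inhibitor genes *Cdkn2a*, *Cdkn2b*, *Cdkn1a* and *Cdkn1b*, the gene of the p53 transcription factor, *Trp53*, the gene of its inhibitor, *Mdm2*, and *Mtap*, the neighbour of *Cdkn2a*. They were measured by ATAC-seq, in which a transposase cuts and tags accessible DNA, in C3H/10T1/2 cells, an established mouse line of mesenchymal progenitor cells (MPCs). Peaks of all 9 libraries that overlapped or touched were merged, and every merged region within a gene or 50 kb of either of its ends was taken, which gave 105 of 135835 regions. Of these, 78 were consensus regions (a peak in at least 2 of 3 libraries of some line, 97338 over the genome), and 44 had a peak in every library (47431 over the genome).

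The libraries came from 3 lines of these cells, with 3 libraries each. WT cells received a Cas9 plasmid without a guide RNA, and the *Atrx* knockout (KO) lines B10 and G7 received the same plasmid with a guide against *Atrx*, a different guide for each. *Atrx* encodes a chromatin remodelling protein. Both KO lines were grown from single sorted cells, so each is 1 clone, and a difference between a clone and WT cannot be told apart from a difference between single-cell clones. Nothing in the sources used here says that the libraries of a line were separate cultures, so the p-values measure the spread between libraries only. The WT libraries serve as the comparison for B10 and for G7. Replicate 1 stood apart in each line: its deviations from the line means correlated at -0.561 to -0.356 with those of replicates 2 and 3 of the other lines, while replicates 2 and 3 correlated at 0.210 to 0.311, so the counts of ranked regions are also given without it. The deviations of a line sum to 0, so the negative values are in part built in.

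*Cdkn2a* makes 2 proteins from separate start sites, p16Ink4a, which binds and blocks Cdk4 and Cdk6, and p19Arf, which holds Mdm2 away from p53. *Cdkn2b* encodes p15Ink4b, a relative of p16Ink4a, and *Cdkn1a* and *Cdkn1b* encode p21 and p27, which block Cdk2 complexes. p53 switches on *Cdkn1a* and *Mdm2*, and Mdm2 in turn marks p53 for degradation. The interval with *Mtap*, *Cdkn2a* and *Cdkn2b* is often deleted in immortal cell lines, which raised the question whether it held peaks here.

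The start sites of the 3 genes on chromosome 4 carry the question about the interval, so their sequence is shown first. Each line gives the 250 bases before an annotated start site in mm10, read in the direction of the gene, with CpG dinucleotides in capitals. The first had a peak in all 9 libraries and the other 3 had none.
Mtap, chr4:89136872-89137121, plus strand: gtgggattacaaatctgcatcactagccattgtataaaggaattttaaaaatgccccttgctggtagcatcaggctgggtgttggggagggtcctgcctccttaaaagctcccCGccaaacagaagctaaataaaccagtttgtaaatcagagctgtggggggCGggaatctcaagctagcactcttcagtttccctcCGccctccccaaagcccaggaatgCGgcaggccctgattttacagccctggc
Cdkn2a, p16Ink4a start site, chr4:89282193-89282442, minus strand: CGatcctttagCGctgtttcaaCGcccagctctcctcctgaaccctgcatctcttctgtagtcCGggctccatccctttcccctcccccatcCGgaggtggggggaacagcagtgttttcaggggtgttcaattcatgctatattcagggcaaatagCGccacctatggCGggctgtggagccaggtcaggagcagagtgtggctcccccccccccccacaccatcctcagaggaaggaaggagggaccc
Cdkn2a, p19Arf start site, chr4:89294654-89294903, minus strand: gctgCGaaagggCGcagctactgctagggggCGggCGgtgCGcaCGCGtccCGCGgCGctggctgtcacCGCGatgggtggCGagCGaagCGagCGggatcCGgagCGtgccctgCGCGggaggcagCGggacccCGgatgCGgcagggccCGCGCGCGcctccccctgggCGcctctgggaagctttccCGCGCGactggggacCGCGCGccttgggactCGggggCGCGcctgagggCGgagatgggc
Cdkn2b, chr4:89311040-89311289, minus strand: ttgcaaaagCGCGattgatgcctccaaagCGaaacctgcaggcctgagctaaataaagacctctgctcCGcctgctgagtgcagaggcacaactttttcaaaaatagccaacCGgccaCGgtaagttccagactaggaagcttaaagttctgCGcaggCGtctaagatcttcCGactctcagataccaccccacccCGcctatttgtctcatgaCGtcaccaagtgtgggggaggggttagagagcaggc
The *Mtap* stretch held 4 CpG dinucleotides and the p19Arf stretch 38, with 7 before the p16Ink4a start site and 11 before that of *Cdkn2b*.

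The interval from the first base of *Mtap* to the last base of *Cdkn2b* (chr4:89137122-89311039, 173.9 kb) was not free of peaks in any line. It held 16 merged regions, 13 of them consensus regions and 7 with a peak in every library. WT libraries had a peak in 9, 11 and 14 of the 16, B10 libraries in 9, 13 and 10, and G7 libraries in 9, 11 and 11. All 3 lines thus had open chromatin in the *Mtap* end of the interval.

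*Mtap* encodes the enzyme that recycles methylthioadenosine. Its start-site region (chr4:89136836-89138488) ranked near the top of every library. A rank here is the percentile, among all peaks of the same library, of the -log10 q of the strongest peak in the region, so that 100 is the strongest. It stood at 93.5, 94.2 and 94.1 in WT, at 89.8, 93.3 and 93.1 in B10 and at 91.0, 94.6 and 94.9 in G7. The B10 values lay below all WT values and the G7 values overlapped them, and neither difference passed the test (B10 minus WT -1.91 ± 1.20 (SE), adjusted p = 0.321; G7 minus WT -0.46 ± 1.20, adjusted p = 0.857). A second annotated start of *Mtap*, inside the gene, had a weak peak in 2 libraries (chr4:89175628-89175982).

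The other end of the interval had no peak at all. A stretch of 123.257 kb (chr4:89258266-89381522) was without a peak in every one of the 9 libraries, and it held *Cdkn2a* (chr4:89274471-89294653) and *Cdkn2b* (chr4:89306299-89311039) whole, with both start sites of *Cdkn2a* and the only one of *Cdkn2b*. The stretch began 16.2 kb beyond the 3′ end of *Cdkn2a* and ended 70.5 kb upstream of the *Cdkn2b* start site. By line it measured 124.4 kb in WT, 123.3 kb in B10 and 124.4 kb in G7, and in single libraries from 123.3 to 191.1 kb. The peaks of each list are numbered, and no number was missing from any list.

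**Figure D1:**
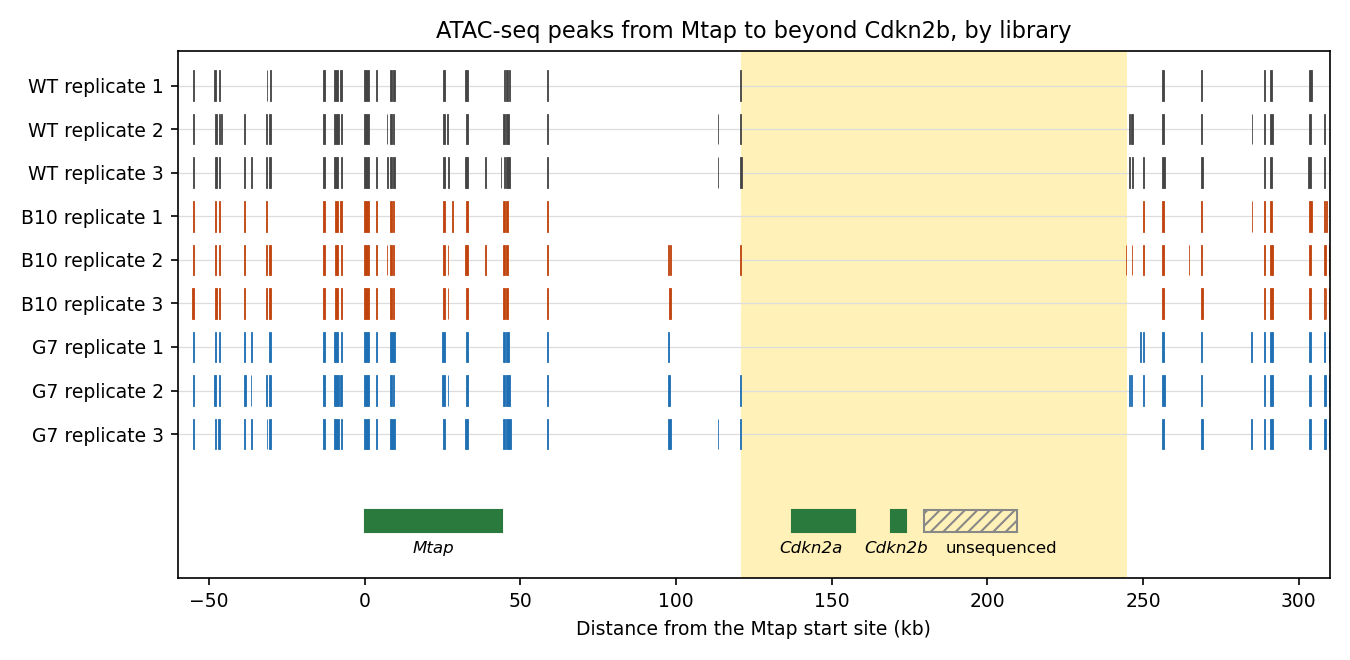
Peaks of each library (coloured bars, 1 row per library) against the distance from the *Mtap* start site in kb, with the genes in green, the unsequenced 30000 bases hatched and the 123.257 kb without a peak shaded. Peaks line up across the 9 rows on both sides of the shaded stretch, and none falls inside it.

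The region at its left edge, in an intron of the noncoding gene Gm12606 (chr4:89257709-89258265), had a peak in 6 libraries, at rank 30.9, 47.7 and 38.9 in WT, in 1 B10 library at 22.6 and in 2 G7 libraries at 30.8 and 30.5. The region at its right edge (chr4:89381523-89381700) had a peak in 1 library. Further out the chromatin was open in all lines: 15 regions with a peak in every library lay within 200 kb on the left and 14 within 200 kb on the right.

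Stretches of this length were not rare, since 2522 of 135781 gaps between neighbouring regions (1.86%), 160 of them on chromosome 4, were at least as long, against a median of 6.65 kb. Of these long gaps, 302 held a CpG-rich start site of a protein-coding gene and 37 held such starts of at least 2 genes. The smaller flank count of this stretch, 14, was then taken as a cutoff, so the stretch met it by construction. Only 3 of the 2522, this one among them, had at least 14 regions with a peak in every library within 200 kb on each side. The other 2 (chr8:70986618-71205363 and chr19:9144184-9828812) held no protein-coding start site. A gap on chromosome 4 with the CpG-rich start of *Zswim5* (chr4:116828400-116976655) had 14 and 12 such regions and just missed the cutoff. The mm10 sequence of the stretch has 30400 unknown bases, 30000 of them in a single assembly gap upstream of *Cdkn2b* (chr4:89316800-89346799), where no read could be placed. It had 92.857 kb of known sequence, and 3528 gaps (2.60%) had at least as much.

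A start site was called CpG-rich where the 500 bases on either side had at least 50% G and C and an observed-to-expected CpG ratio of at least 0.6. The p19Arf start site (ratio 0.981) and the *Cdkn2b* start site (0.745) were CpG-rich, and the p16Ink4a start site (0.537) was not. Among the 10939 protein-coding genes with a CpG-rich start site, 82.0% had a peak within 500 bp of a start site in all 9 libraries and 13.3% had none in any. *Cdkn2a* and *Cdkn2b* belonged to the 13.3%. Peak lists hold no reads between peaks, so a deletion of this stretch, also on 1 allele, and intact closed chromatin cannot be told apart from them.

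Few regions lay in the windows of these genes. The *Cdkn2a* window held 3 regions, and 19.0% of 21755 protein-coding genes had 3 or fewer. The *Cdkn2b* window held 1, and 13.3% had 1 or none, against a median of 11. All 3 lay beyond the 3′ end of *Cdkn2a*. The farthest (chr4:89234454-89235477) was gained in B10 and in G7, where gained means a peak in at least 2 libraries of the clone and in none of WT. It was absent from all WT libraries and from B10 replicate 1, ranked 6.05 and 14.8 in the other two B10 libraries, and 23.9, 40.2 and 33.9 in G7. The second (chr4:89250449-89250684), in an intron of Gm12606, was lost in B10 by the reverse rule. It ranked 12.0 and 20.5 in WT replicates 2 and 3 and 3.45 in a single G7 library. All of these ranks were in the lower part of their libraries.

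Genes farther out on chromosome 4 had open start sites, as the chosen list of neighbours shows. Of its 11 genes, *Mllt3*, *Focad*, *Hacd4*, *Ifnb1*, *Klhl9*, *Mtap* and *Elavl2* had a start-site peak in all 9 libraries. *Dmrta1*, the next coding gene beyond *Cdkn2b* in this list, had one in 1 library, and *Ifne*, *Cdkn2a* and *Cdkn2b* had none. *Focad*, which encodes focadhesin, ranked between 97.8 and 99.2 in every library. Start sites changed in different directions: *Elavl2*, which encodes an RNA-binding protein, was 13.5 percentile points lower in B10 than in WT (limma, adjusted p = 0.00147) and 1.64 lower in G7 (adjusted p = 0.618). *Hacd4*, a gene of fatty acid elongation, was higher in each clone, with a mean rank of 58.7 ± 6.85 (SD, n = 3) in WT, 71.5 ± 0.90 in B10 and 75.4 ± 1.73 in G7 (limma adjusted p = 0.0442 for B10 and 0.0218 for G7). Less the median shift of the regions within 5 Mb, *Hacd4* was still past the threshold in G7 (adjusted p = 0.0392) and no longer in B10 (12.6, adjusted p = 0.0551), and *Elavl2* was so in B10 (adjusted p = 0.00102).

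The start-site regions of *Cdkn1a*, *Cdkn1b*, *Trp53* and *Mdm2* had a peak in all 9 libraries, like that of *Mtap*. Ordered by mean rank in WT they ran from *Cdkn1b* (94.8) through *Mtap* (94.0), *Mdm2* (90.8) and *Cdkn1a* (84.8) to *Trp53* (69.1). *Cdkn1b* and *Mtap* overlapped in WT, *Mtap* and *Mdm2* did not, *Mdm2* and *Cdkn1a* overlapped by single libraries, and *Cdkn1a* and *Trp53* did not overlap. The order within WT says where the peaks stood among all peaks and not how much of each gene's RNA was made.

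**Figure D2:**
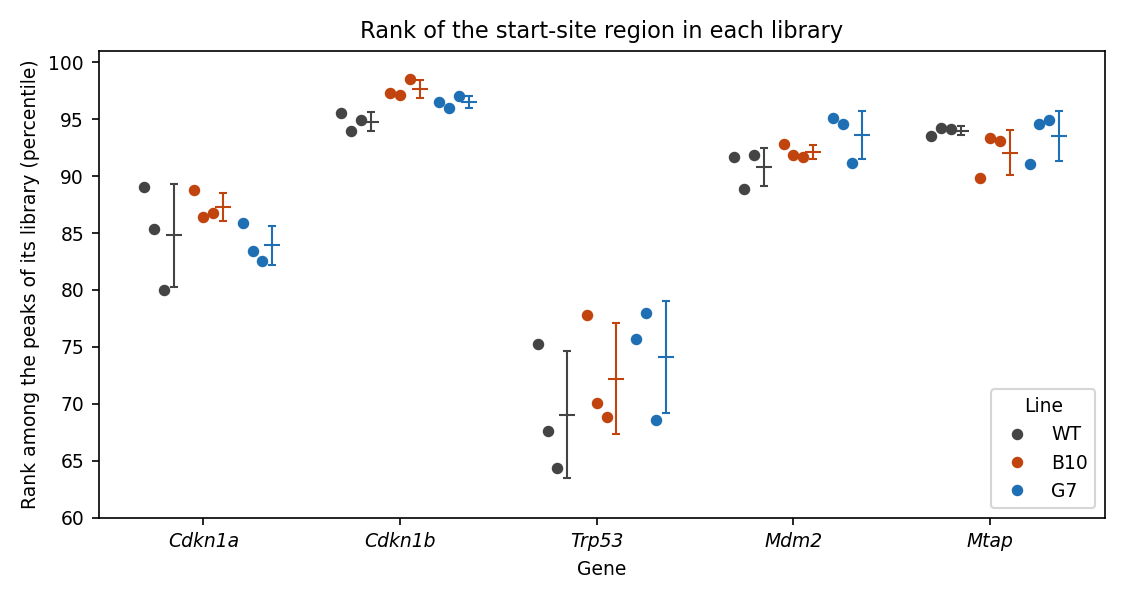
Rank of the start-site region (percentile among the peaks of the library, y axis from 60) for 5 genes, with 1 point per library coloured by line, and the mean with its SD (n = 3) beside the points. *Cdkn1b* is the gene whose B10 and G7 points all lie above the WT points, and *Trp53* has the lowest ranks and the widest spread.

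Among the 5 genes with a start-site peak, *Cdkn1b*, the p27 gene, was the only one whose merged start-site region passed the test (chr6:134919766-134921363). It ranked 95.5, 93.9 and 94.9 in WT, 97.3, 97.1 and 98.5 in B10 and 96.5, 96.0 and 97.1 in G7. Neither clone overlapped WT. The rise of 2.84 ± 0.58 (SE) percentile points in B10 passed the test across all 47431 regions (limma, adjusted p = 0.0105), and the difference of 1.73 ± 0.58 in G7 did not (adjusted p = 0.0920), though it did with the replicate number as a block (adjusted p = 0.0185). By fold enrichment over background, the other measure in the lists, the same region was not higher in B10, at 14.0, 14.9 and 15.2 against 15.8, 15.4 and 14.6 in WT. Relative to the other regions within 5 Mb, which were also higher in B10, the direction turned, to 1.86 percentile points below WT (adjusted p = 0.268). With a mean rank of 94.8 in WT, near the top of the scale, the region had little room to rise. The turned direction therefore cannot tell a smaller change than in the surroundings from the limit of the scale.

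Other regions around *Cdkn1b* were higher in B10 too, in ranks as they stand. The start of *Lockd*, a noncoding gene downstream (chr6:134928063-134929363, mean rank 93.7 ± 1.48 (SD) in WT and 97.5 ± 0.81 in B10, limma adjusted p = 0.0267), and the shared start region of *Gpr19* and 2810454H06Rik (chr6:134897548-134898817, 92.1 ± 2.18 and 96.6 ± 1.04, adjusted p = 0.0198) were higher. Relative to the regions within 5 Mb these were at -0.94 (adjusted p = 0.699) and -0.13 (adjusted p = 0.970). Both ranked near the top of the scale in WT, so the same limit applies to these values. With the replicate block the *Gpr19* start was higher in G7 too (limma, adjusted p = 0.0167). A region over an exon of *Lockd*, 23.7 kb downstream of the *Cdkn1b* start (chr6:134943580-134944611), was the one member region to pass in each clone the same way without the replicate block. It ranked 77.1, 70.5 and 76.5 in WT, 90.3, 85.3 and 87.8 in B10 and 88.7, 82.7 and 80.9 in G7. No library of either clone fell as low as WT, and the rises were 13.1 ± 2.60 (SE) and 9.39 ± 2.60 (limma adjusted p = 0.00935 and 0.0494). Relative to the regions within 5 Mb it was 8.40 higher in B10 (adjusted p = 0.0932) and 7.97 higher in G7 (adjusted p = 0.145), short of the threshold.

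Regions were gained and lost near *Cdkn1b* as well. A region 3.16 kb upstream of its start (chr6:134917102-134917382) was gained in B10, at ranks 44.4, 36.2 and 19.3, with no peak in any WT or G7 library. In an intron of *Gpr19* a region of 201 bp (chr6:134873163-134873363) was gained in G7, at 29.6 and 21.1, and had a peak in 1 B10 library at 26.0. Near the *Gpr19* start a region (chr6:134888213-134888493) was lost in G7, after ranks of 5.22 and 10.8 in 2 WT libraries.

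*Cdkn1a*, the p21 gene, had its peaks at the CpG-rich pair of start sites (chr17:29093455-29095923) and none at the annotated start upstream of them. The merged region ranked 89.0, 85.4 and 80.0 in WT, 88.7, 86.4 and 86.7 in B10 and 85.8, 83.4 and 82.5 in G7. The 3 lines overlapped, and neither clone differed from WT beyond the spread (B10 minus WT 2.49 ± 2.12 (SE), limma adjusted p = 0.478; G7 minus WT -0.88 ± 2.12, adjusted p = 0.843). In 8 of the 9 libraries this region was 2 peaks, a narrow one over the start sites and a wide one downstream in the gene, and in G7 replicate 1 a single peak spanned both. The merged rank is that of the stronger peak. This was the wide one in WT replicates 1 and 2 and the narrow one in B10 replicates 1 and 2, so unlike peaks were compared.

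Without G7 replicate 1 the pair could be ranked apart, a choice made after their values were seen. The narrow start-site peak (chr17:29093455-29093925) then ranked 79.8, 77.0 and 80.0 in WT, 88.7, 86.4 and 85.8 in B10, and 82.8 and 82.5 in G7. All B10 values lay above all others, and the rise over WT of 8.03 ± 1.58 (SE) passed the test (limma, adjusted p = 0.0106), while that of G7 was 3.71 ± 1.76 (adjusted p = 0.253). The wide peak (chr17:29094134-29095923) ranked 89.0, 85.4 and 79.8 in WT and 85.5, 85.2 and 86.7 in B10, which overlapped (difference 1.06 ± 2.20, adjusted p = 0.793). With replicates 2 and 3 of every line alone, the narrow peak was 7.58 ± 1.73 higher in B10 (adjusted p = 0.0108). The other regions within 5 Mb had a median difference of 3.56 in B10, and the part of that shift in the rise was not tested.

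**Figure D3:**
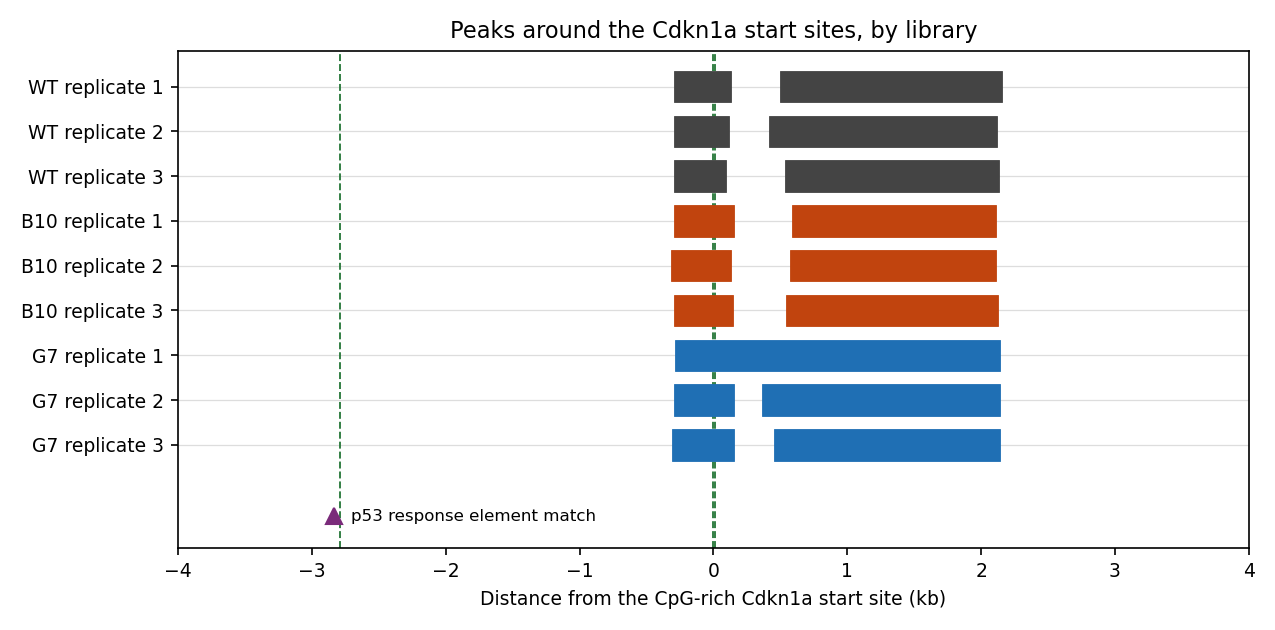
Peaks of each library (1 row each, coloured by line) against the distance from the first CpG-rich *Cdkn1a* start site in kb, with annotated coding start sites as dashed lines and the p53 response element match as a triangle. A narrow and a wide peak repeat in 8 rows, G7 replicate 1 joins them, and no row has a peak at the upstream start site or at the match.

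Upstream of *Cdkn1a* lies *Trp53cor1*, the gene of lincRNA-p21, and its start region (chr17:29077950-29079538) was the highest ranked of the locus. It ranked 96.3, 97.0 and 95.9 in WT, 98.8, 98.3 and 98.5 in B10 and 97.6, 96.8 and 96.9 in G7. The B10 values were all above the others and passed the test (difference 2.15 ± 0.43 (SE), limma adjusted p = 0.00985), and G7 overlapped WT (0.73 ± 0.43, adjusted p = 0.323). Relative to the regions within 5 Mb it was 1.40 below WT in B10 (adjusted p = 0.206). Its WT ranks lay near the top of the scale, with little room to rise. This value therefore cannot tell a smaller change than in the surroundings from that limit. An intron region of the same gene (chr17:29068952-29069798) had 90.5, 89.5 and 90.5 in WT, 94.4, 93.7 and 94.7 in B10 and 89.6, 85.6 and 88.4 in G7. B10 minus G7 was 6.39 ± 1.02 (limma, adjusted p = 0.00746), the 1 such difference to pass among the 44 regions, where over all regions 4.21% were higher and 2.39% lower in B10 than in G7. With the replicate block 5 of the 44 were higher in B10 than in G7 and 1 lower, against 14.3% and 6.58%. Relative to the regions within 5 Mb 0 passed in either direction, against 2.12% and 2.46%, and the intron region differed by 3.68 (limma, adjusted p = 0.0779). At an unadjusted limma p under 0.05, for which no share over all regions was computed, 3 passed each way. Another region with a rise in B10 (chr17:29058033-29058421), at the start of AC167363.1, had mean ranks of 55.3 ± 6.36 (SD, n = 3) in WT, 69.7 ± 3.36 in B10 and 65.1 ± 2.57 in G7 (limma adjusted p = 0.0405 and 0.163).

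Presence calls near *Cdkn1a* were 1 region gained in G7 and 1 lost in B10. The gained region (chr17:29047993-29048386) was between genes and ranked 25.1 and 12.2 in 2 G7 libraries and 15.7 in 1 B10 library. The lost region (chr17:29133946-29134812), at a start of *Rab44*, had a peak in every WT and every G7 library and in no B10 library, at 54.1, 42.4 and 38.1 in WT and 27.1, 23.5 and 22.8 in G7. The 3 lines did not overlap there.

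*Trp53* shares its start region (chr11:69579935-69580572) with *Wrap53*, which runs from the opposite strand, so a peak there cannot be assigned to either gene. It ranked 75.2, 67.6 and 64.4 in WT, 77.8, 70.1 and 68.8 in B10 and 75.7, 78.0 and 68.6 in G7. The lines overlapped (B10 minus WT 3.16 ± 4.04 (SE), limma adjusted p = 0.656, and G7 minus WT 5.03 ± 4.04, adjusted p = 0.482), and 95% intervals of -5.89 to 12.2 and -4.02 to 14.1 points leave room for either sign. The strongest region of the locus was the *Fxr2* start (chr11:69632291-69633479), which stood between 99.4 and 99.6 in all 9 libraries. Between genes, a region of 182 bp (chr11:69628405-69628586) was gained in B10 at ranks 62.6, 56.8 and 57.9, the highest ranks of any gained member region, with no peak in any WT or G7 library.

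*Mdm2* had 1 region over its start (chr10:117709519-117711268), at 91.7, 88.9 and 91.9 in WT, 92.8, 91.9 and 91.7 in B10 and 95.1, 94.5 and 91.2 in G7. The lines overlapped, and neither difference passed (B10 minus WT 1.31 ± 1.16 (SE), limma adjusted p = 0.497; G7 minus WT 2.81 ± 1.16, adjusted p = 0.160). The next strongest region was the start of *Slc35e3*, a gene of the solute carrier family (chr10:117745572-117746716, between 87.5 and 92.5 in all libraries). Weak regions were gained at 3 places: chr10:117669369-117669879, in an intron of *Cpm*, and chr10:117716372-117716563 in B10, and chr10:117741221-117741767, in an intron of *Slc35e3*, in each clone. Their ranks were 37.3 at most, and the last had a peak in B10 replicates 1 and 2 at 37.3 and 13.2 and in G7 replicates 1 and 2 at 15.3 and 2.44.

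The p53 protein binds a response element of 2 adjacent half-sites of 10 bases. Places with both half-sites side by side, both 4-base cores intact and at most 1 mismatch in the other 12 bases were searched for on both strands in the gene windows, which gave 7 matches. They are shown in the direction of the gene with the cores in capitals.
Cdkn1a, chr17:29090928-29090947, no library with a peak: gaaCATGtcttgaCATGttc
Cdkn1a, in Trp53cor1, chr17:29079039-29079058, 9 libraries: aggCAAGcccgggCAAGgcc
Mdm2, upstream, chr10:117717736-117717755, 9 libraries: aaaCATGtacaaaCATGtcc
Mdm2, in the gene, chr10:117699921-117699940, 1 library: ggaCTTGtccagcCAAGttt
Mdm2, in Cpm, chr10:117685731-117685750, no library: tggCTAGtccaggCTAGcct
Cdkn2a, beyond its 3′ end, chr4:89234932-89234951, 5 libraries: aagCAAGcctacaCATGcct
Cdkn2a window, in Cdkn2b, chr4:89308400-89308419, no library: agaCATGtccggtCTTGctc

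The match just upstream of the first *Cdkn1a* start was without a peak in all 9 libraries, 2.51 kb from the start-site region and 11.4 kb from the nearest region on its other side. The match in *Trp53cor1* lay in the region that rose in B10. The *Mdm2* upstream match lay in a region between genes (chr10:117717444-117718175) that ranked 68.8, 75.3 and 73.7 in WT, 77.9, 78.0 and 76.0 in B10 and 72.7, 71.2 and 78.1 in G7. B10 did not overlap WT there, yet the difference of 4.70 ± 2.80 (SE) did not pass (limma, adjusted p = 0.296). The match beyond *Cdkn2a* lay in the region that was gained in each clone. In windows of 401 bp at the middle of each consensus region, 0.113% of all 97338 held such a match and 2 of the 78 member regions did. The AP-1 motif TGAGTCA, on either strand, was in 16 of the 78 windows (20.5%) and in 20.6% of all. A match is a string of letters and does not show that a factor was bound.

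Gains and losses were few. Of 78 consensus regions 6 were gained in B10, where 10.4% of all consensus regions were, and 2 were lost, against 7.58%. In G7 4 were gained, against 5.69%, and 2 were lost, against 7.42%. As shares of the member regions the counts were 7.69% and 2.56% for B10 and 5.13% and 2.56% for G7. With single libraries left out, gains in B10 ran from 2 (without B10 replicate 2) to 10 (without WT replicate 1), losses in B10 from 1 (without WT replicate 2 or 3) to 6 (without B10 replicate 2), gains in G7 from 1 (without G7 replicate 2) to 7 (without WT replicate 1), and losses in G7 from 0 (without WT replicate 2 or 3) to 5 (without G7 replicate 2). These counts do not set the loci apart from the genome.

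Of the 44 regions with a peak in every library, 7 were higher in B10 (15.9%, against 11.0% of all 47431) and 0 were lower (against 5.37%), and 1 was higher in G7 (2.27%, against 5.39%) and 0 lower (against 4.82%). At an unadjusted limma p under 0.05 the counts were 12 higher and 1 lower in B10 and 6 higher and 1 lower in G7. With replicates 2 and 3 of every line alone, a choice made after the data were seen, 10 were higher and 2 lower in B10 and 1 was higher and 1 lower in G7. For every count at an unadjusted p, and for those with replicates 2 and 3 alone, no share over all regions was computed. These counts therefore cannot be set against the genome. By log2 fold enrichment 0 were higher or lower in either clone, against 3.21% and 3.24% of all regions in B10 and 1.49% and 1.37% in G7, and at an unadjusted limma p under 0.05 4 were higher and 3 lower in B10 and 1 each in G7. The count of 7 fell to 3 without B10 replicate 2 and to 4 without WT replicate 2. The 7 were 4 regions near *Cdkn1b* and 3 near *Cdkn1a*. The median difference of the 44 was 2.66 percentile points in B10, against 0.70 over all regions, and 1.06 in G7, against -0.03. With the replicate number as a block, 12 were higher and 3 lower in B10, against 21.4% and 12.1% of all regions, and 3 were higher and 2 lower in G7, against 13.2% and 13.4%. The 3 higher in G7 lay near *Cdkn1b* and were higher in B10 too, and the 2 lower, in introns of *Mtap* (chr4:89169430-89170266) and *Cpm* (chr10:117676948-117678073), were lower in B10 too.

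**Figure D4:**
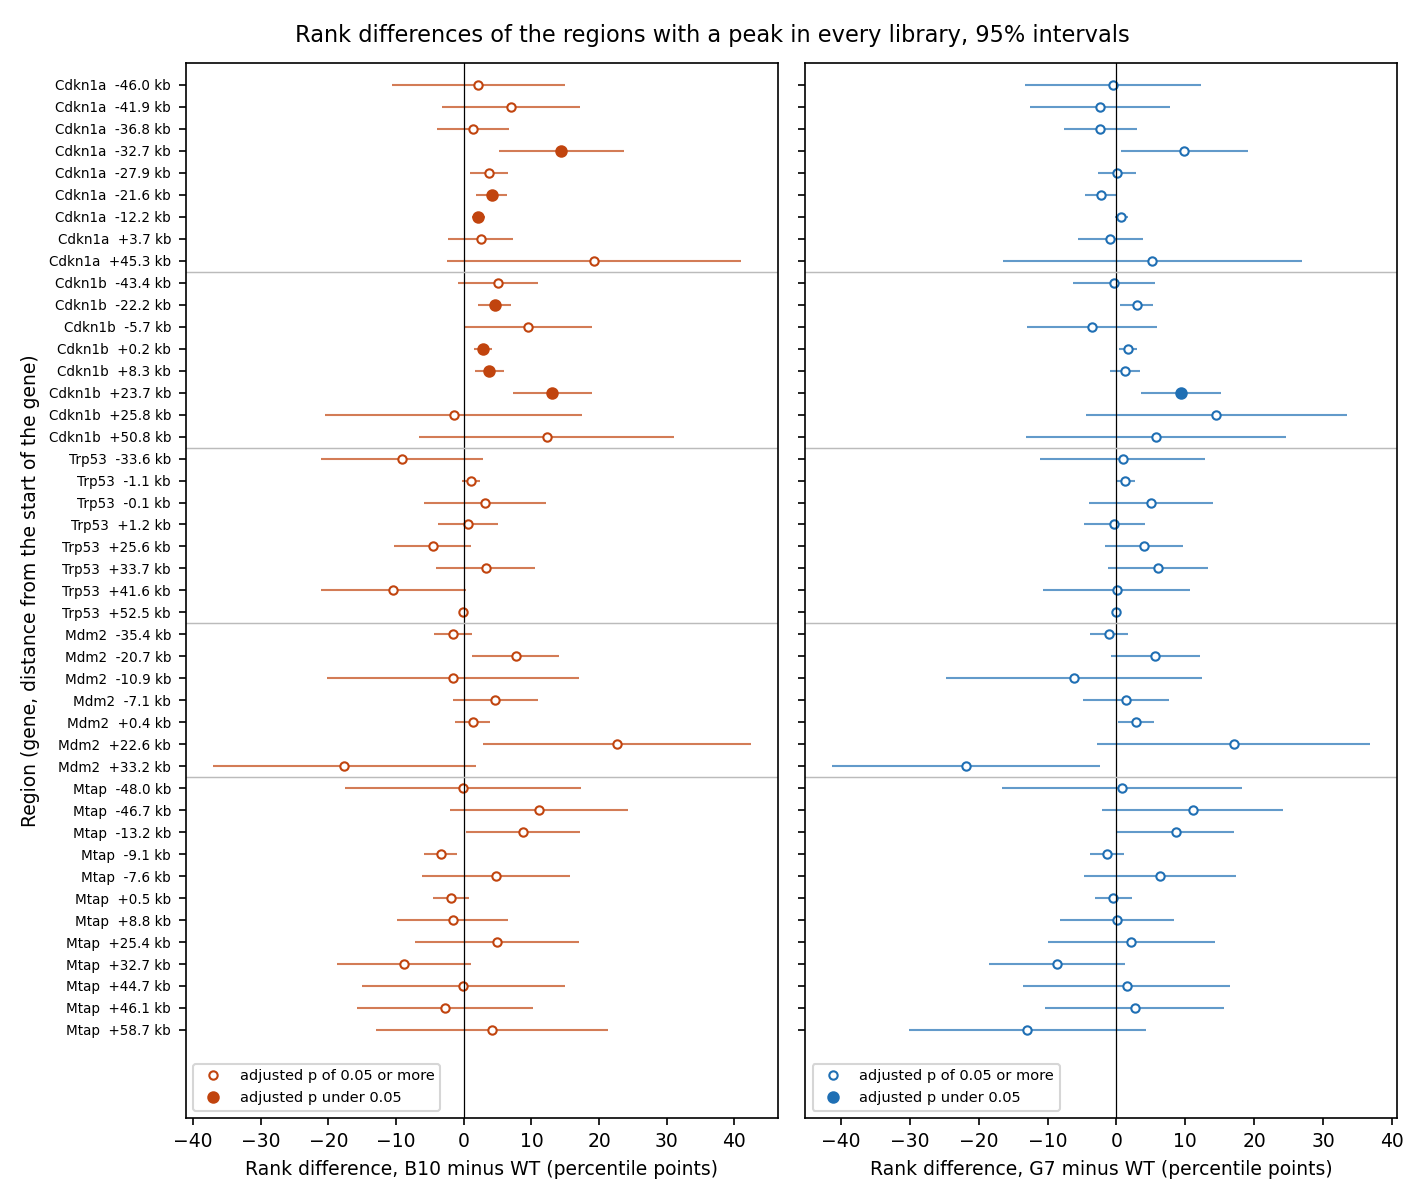
Rank difference from WT in percentile points (points) with its 95% interval (lines) for the 44 regions with a peak in every library, B10 on the left and G7 on the right, ordered by locus and by distance from the gene's start in kb. Filled points passed the limma test, and these are 7 in B10, all at *Cdkn1a* and *Cdkn1b*, and 1 in G7.

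The surroundings of those 2 genes were shifted in B10 as well. Within 5 Mb of *Cdkn1b*, the 142 other regions with a peak in every library had a median rank difference of 3.95 in B10, and all of chromosome 6 had 5.68. Within 5 Mb of *Cdkn1a* the median of 462 regions was 3.56, and over chromosome 17 it was 2.07. At the locus itself the medians were 4.81 and 3.73. Around *Trp53*, *Mdm2* and *Mtap* the medians within 5 Mb were 1.11, 1.50 and -0.18.

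With the median of the regions within 5 Mb taken off, 0 of the 44 regions passed in either clone, against 7.26% of all regions higher and 5.86% lower in B10 and 4.01% and 3.15% in G7. At an unadjusted limma p under 0.05, again without a share over all regions, 4 were higher and 5 lower in B10 and 1 was higher and 5 lower in G7. In ranks as they stand, leaving out single libraries, the count of regions higher in G7 stayed at 1 without WT replicate 1 and was 0 without any of the others.

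**Figure D5:**
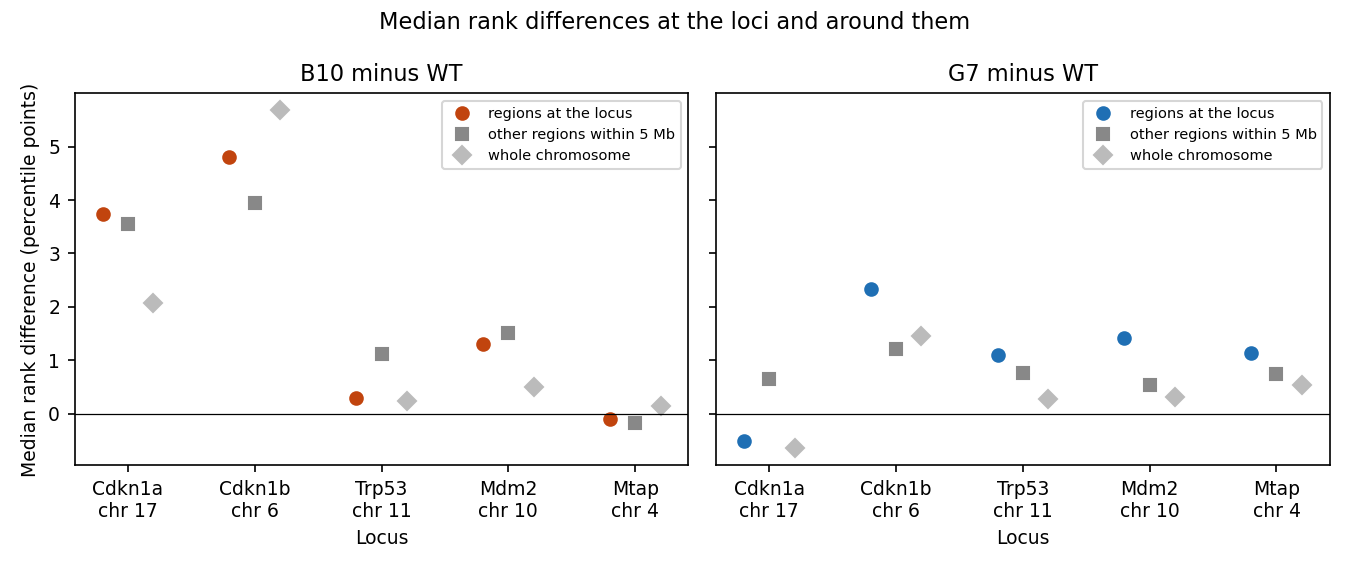
Median rank difference from WT in percentile points at 5 loci (circles), for the other regions within 5 Mb (squares) and for the whole chromosome (diamonds), B10 on the left and G7 on the right. In B10 the *Cdkn1a* and *Cdkn1b* loci sit at 3.73 and 4.81 with their surroundings at 3.56 and 3.95, and those of the other 3 loci sit between -0.18 and 1.50.

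The wider pathway was read from lists of 60 genes: other inhibitors and pocket proteins, p53 regulators, the p53 family, p53 target genes, and cyclins, CDKs and E2F factors. A start-site peak stood in all 9 libraries at 55 of them, in some libraries at 1, the p53 target *Perp* with 3, and in none at 4. These 4 were *Cdkn1c*, the p57 gene, *Trp63* and *Trp73*, the 2 relatives of *Trp53*, and *Pmaip1*, the gene of the death-promoting protein Noxa. In B10, 7 of the 55 rose and 0 fell, where 10.6% of 10174 start-site regions of coding genes rose and 5.89% fell. In G7, 3 rose and 2 fell, where 6.27% rose and 6.35% fell. None of these was called in both clones. With the replicate block 10 were up and 5 down in B10, where 21.4% of all 47431 regions were higher and 12.1% lower. In G7 4 were up and 6 down, where 13.2% were higher and 13.4% lower. Of the 55 genes, 3 were then up in each clone (*Rbl2*, *Ccnd3* and *E2f4*) and 3 down in each (*Chek2*, *Rchy1* and *Tnfrsf10b*). Without the block and with the median of the regions within 5 Mb taken off, of these genes only *Tnfrsf10b* in G7 passed (-10.7, limma adjusted p = 0.0128). *Chek2* turned direction, to 0.77 in B10 and 1.40 in G7. Both clones share the WT libraries. Relative to the regions within 5 Mb the tally in B10 turned, with 0 up and 3 down, against 7.26% and 5.86% of all regions. In G7 1 was up and 1 down, against 4.01% and 3.15%. Shares over the start-site regions alone were not computed for the block or for this fit. Those lower in B10 were *Plk2* (-2.86, limma adjusted p = 0.0143), *Ccnb1* (-3.19, adjusted p = 0.0128) and *E2f3* (-3.33, adjusted p = 0.0197), 3 of the 7 that were higher before. In WT these 3 had mean ranks of 96.0, 93.8 and 95.9, near the top of the scale, with little room to rise. For them the fit cannot tell a fall relative to the surroundings from the limit of the scale.

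By list, the 7 rises in B10 were 3 of 20 p53 target genes with a peak, 3 of 17 cyclins, CDKs and E2F factors and 1 of 12 p53 regulators. The 6 inhibitors and pocket proteins with a peak had 0 in B10 and 1 rise in G7. In G7 the p53 targets had 2 falls and the cyclins, CDKs and E2F factors 2 rises. The median differences of the 55 were 0.40 in B10 and 0.65 in G7, against 0.25 and 0.18 over all start-site regions.

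The markers of the labelled cell type were open, with a start-site peak in all 9 libraries at 12 of 12 mesenchymal genes. Of 10 markers of other cell types 1 had a peak in all libraries, *Tubb3*, with a mean rank of 71.0 in WT. Another 3 had one in some libraries, *Pecam1* in 6, *Krt8* in 3 and *Cdh5* in 2. The remaining 6 had none, among them *Ptprc* of blood cells and *Epcam* of epithelium. The 9 lists held between 76385 and 88535 peaks on the chromosomes used and covered 46.7 to 50.1 Mb.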

How the data were processed

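Open chromatin was measured by Omni-ATAC in undifferentiated C3H/10T1/2 MPCs, with 3 libraries of WT, B10 and G7. Per the study's methods the authors aligned paired reads to mm10 with Rsubread and called peaks with MACS2 in each library separately. Peak names mention an input, which the sources used here do not describe. Each deposited list gives a display score, the fold enrichment over background (a ratio) and the -log10 p-value and -log10 q of every peak, and the fold, -log10 q and positions were used. The lists hold no read counts, so depth is unknown.

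Peaks of all lists that overlapped or touched were merged, and regions were assigned to genes by GENCODE M21 with flanks of 50 kb. A start-site region lay within 500 bp of an annotated start. The percentile rank of the best -log10 q was compared between lines with limma 3.58.1 (R 4.3.3, Python 3.11.15) over the 47431 regions with a peak in all 9 libraries, with Benjamini-Hochberg adjustment and a threshold of 0.05. The fit was also run on simulated data with independent noise in each library and large shifts in regions of middle rank. That run did not cover deviations shared by replicate number, small shifts or changes in regions near the top. An exact permutation test of 3 against 3 libraries cannot go below p = 0.1. The start site of every gene was named, with the regions gained or lost in a clone, those past the test in both clones and the highest ranked other region of a locus; further regions that passed in B10 and the split of the *Cdkn1a* peak were chosen after their values were seen. The genes and lists were chosen with earlier results of these data known.

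Libraries that share a replicate number in the labels deviated together: the 9 such pairs correlated at 0.314 to 0.664 (median 0.412) and the others at -0.561 to 0.311 (median -0.403), so values with the replicate number as a block stand beside results that they change. Since the deviations of a line sum to 0, positive values in the first kind of pair push the others below 0. Other alternatives were a stricter q, equal numbers of peaks, other merging, overlap and flanks, fold enrichment, the local shift removed, absent peaks at rank 0, and each library left out. The local shift was taken per library over all regions with a peak in every library within 5 Mb, the tested region included. It was the median of their deviations from their own means over the 9 libraries. Those regions had ranks of any height, and the rank scale is bounded at its top. A region near the top can therefore turn negative once the shift is taken off, even if it rose. The medians given around a locus left out the regions of that locus. The score and the p-value columns were not used. Promoter and genome sequences are those of RefSeq and GRCm38 in the mm10 coordinates of the files, and all 7 genes were in the promoter table.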

Additional observations from a re-analysis of the deposited data

Results flagged for a closer look

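In the intron region of *Trp53cor1* upstream of *Cdkn1a* (chr17:29068952-29069798), the 2 clones differed from each other: the rank was 6.39 percentile points higher in B10 than in G7 (limma, adjusted p = 0.00746), after a difference from WT of 4.12 in B10 and -2.27 in G7. Both differences use the same WT libraries. All 3 B10 libraries lay above all WT and G7 libraries. With the median of the regions within 5 Mb taken off, the difference between the clones was 3.68 and no longer past the threshold (limma, adjusted p = 0.0779).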

How the results depend on the processing

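The peak-free stretch measured 123 to 124 kb and the *Mtap* to *Cdkn2b* interval held 15 to 16 regions when any library was left out. Without one library at a time, member regions numbered 98 to 107, regions gained in B10 2 to 10, lost in B10 1 to 6, gained in G7 1 to 7, lost in G7 0 to 5, ranked higher in B10 3 to 8, lower in B10 0 to 1, higher in G7 0 to 1 and lower in G7 0 to 0. The extremes came without B10 replicate 2 (2 gained, 6 lost and 3 higher in B10), WT replicate 1 (10 gained in B10, 7 in G7), G7 replicate 2 (1 gained and 5 lost in G7) and WT replicates 2 or 3 (1 lost in B10, 0 in G7).

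With a -log10 q of at least 5, 3 regions were gained in B10, 4 lost in G7 and 0 higher in G7. With equal numbers of peaks 3 were gained and 4 lost in B10 and 1 was lower in B10, and where a peak had to cover 50% of the region 4 were lost in B10. Flanks of 10 kb left 38 member regions, with 2 gained and 0 lost in B10, 0 gained and 1 lost in G7, 2 higher in B10 and 0 higher in G7. By fold enrichment 0 were higher in B10 and 0 in G7, and likewise 0 and 0 with the local shift removed. With absent peaks at rank 0, 1 was lower in B10 and 3 higher in G7. With the replicate block 12 were higher and 3 lower in B10 and 3 higher and 2 lower in G7, and the *Cdkn1b* start in G7 passed (1.73, limma adjusted p = 0.0185). With replicates 2 and 3 alone 2 were lower in B10 and 1 lower in G7.

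Start-site differences turned direction for *Mtap* in G7 (range -1.17 to 0.78 over left-out libraries, 0.78 without G7 replicate 1, 0.56 with replicates 2 and 3) and *Cdkn1a* in G7 (range -3.27 to 1.23, with 1.23 without WT replicate 1). In B10 they turned by log2 fold enrichment for *Cdkn1a* (-0.0081), *Cdkn1b* (-0.057) and *Trp53* (-0.000286), and with the local shift removed for *Cdkn1a* (-1.06), *Cdkn1b* (-1.86) and *Mdm2* (-0.22). The cause was not tested, and *Cdkn1b* stood near the top of the scale in WT, with little room to rise. The other 62 values under other settings and 88 without a library kept direction and side of the threshold. For *Cdkn1a* without G7 replicate 1, and with replicates 2 and 3 alone, the value counted was that of the wide downstream peak. The narrow start-site peak passed there in B10 (8.03 and 7.58, limma adjusted p = 0.0106 and 0.0108). In G7 the narrow peak was higher than in WT, short of the threshold (3.71 and 4.14, adjusted p = 0.253 and 0.129). Depth is unknown, so a missing peak may be a weak one.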

Other observations

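Among the pathway genes the start sites that passed in a clone, named after their values were seen, were *Hipk2*, *Gadd45a*, *Plk2*, *Tigar*, *Ccnd3*, *Ccnb1* and *E2f3*, higher in B10 in ranks as they stand, *Rbl2*, *Ccnd1* and *E2f4*, higher in G7, and *Ccng1* and *Tnfrsf10b*, lower in G7. *Ccnd1*, the cyclin D1 gene whose Cdk4 partner p16Ink4a blocks, was 20.9 percentile points higher in G7 than in WT (limma, adjusted p = 0.00348). Relative to the regions within 5 Mb, none of the 7 genes stayed higher in B10 past the threshold. *Hipk2* (-1.25) and *Gadd45a* (-1.24) turned direction, and *Plk2* (-2.86), *Ccnb1* (-3.19) and *E2f3* (-3.33) turned and passed as lower (limma, adjusted p = 0.0143, 0.0128 and 0.0197). In WT *Gadd45a*, *Plk2*, *Ccnb1* and *E2f3* had mean ranks of 96.3, 96.0, 93.8 and 95.9, with little room to rise. For these genes the fit cannot tell a fall relative to the surroundings from the limit of the scale. With the local shift taken off, *Ccnd1* in G7 was 10.27 higher, short of the threshold (adjusted p = 0.0751), and *Tnfrsf10b* stayed lower in G7 (-10.7, adjusted p = 0.0128). *Rbl2* (3.05, adjusted p = 0.166) and *E2f4* (1.80, adjusted p = 0.489) were also short of the threshold in G7. *Ccng1* turned direction there (0.74, adjusted p = 0.551).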
